A study of Pomacea canaliculata with 34 samples.

Results

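Early embryonic development of the apple snail Pomacea canaliculata was followed by comparing Stage 6 with Stage 2, the first stage sampled. The libraries were taken by their stage labels, Stage-2 and Stage-6, and they are 6 of the 34 in the series, 3 at each stage. Each library held polyadenylated RNA of whole embryos removed from their eggs and extracted with Trizol. The labels name no treatment, and no strain, clutch, age in days or number of pooled embryos is given for either stage, nor a description of what an embryo looks like at Stage 2 or Stage 6. Whether the 3 libraries of a stage are separate clutches or portions of one pool is likewise unstated. The edgeR p-values and SEs therefore reflect only how far libraries of the same stage differ, possibly for technical reasons. That spread was estimated over all 34 libraries together, not from these 6 alone.

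In animals the first embryonic divisions run largely on messenger RNA that the mother placed in the egg. This maternal RNA is removed while the embryo's own genome is switched on, a handover known as the maternal-to-zygotic transition. In gastropods spiral cleavage is followed by gastrulation and by the laying down of foot, shell gland, head and gut. The eggs of Pomacea are laid above the water, and the embryos develop inside them to crawling young without a free larva. Counts per gene follow such changes in RNA, but in whole embryos a gene that is lower because fewer cells use it cannot be told from one with less RNA per cell.

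The 6 libraries held 16690906 to 23030901 reads counted in genes, against 16608796 to 22149128 in the 9 libraries of Stage 3 to Stage 5. Spearman correlations of log2(CPM + 1) over tested genes, where CPM is a gene's counts scaled to a common library total (per 1e6), ran from 0.981 to 0.993 within a stage and from 0.896 to 0.912 between a Stage 2 and a Stage 6 library. Genes are not independent replicates, so these are descriptions. Genes carry only LOC identifiers in the table and in the reference used here, which pairs none of them with a product. No function is therefore given to any gene, and markers of tissues could not be checked in these whole animals.

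Between Stage 2 and Stage 6 the embryo's RNA changed in an uneven way, with many genes gained by large factors and fewer genes lost by smaller ones. Of 17441 genes tested, 11095 differed (63.6%, edgeR quasi-likelihood test, Benjamini-Hochberg adjusted p under 0.05), of which 6505 rose (37.3%) and 4590 fell (26.3%). A change of 2-fold or more was found in 4292 genes that rose (24.6%) and 1632 that fell (9.36%). The groups of 3 libraries did not overlap in 4169 of these rising and 1532 of these falling genes. Such separation largely follows from choosing the genes by these same libraries, and its share over all tested genes was not counted. The balance of directions depended on how libraries were scaled. Rises made up 58.6% of the calls with the TMM factors used here, 53.9% with RLE factors and 75.3% with library totals, under which the median log2 fold change of all tested genes was 0.18, 0.09 and 0.52. Counted from that median, 3984, 3939 and 4148 genes were 2-fold or more higher under the same scalings, and 2139, 2163 and 1955 were 2-fold or more lower.

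**Figure D1:**
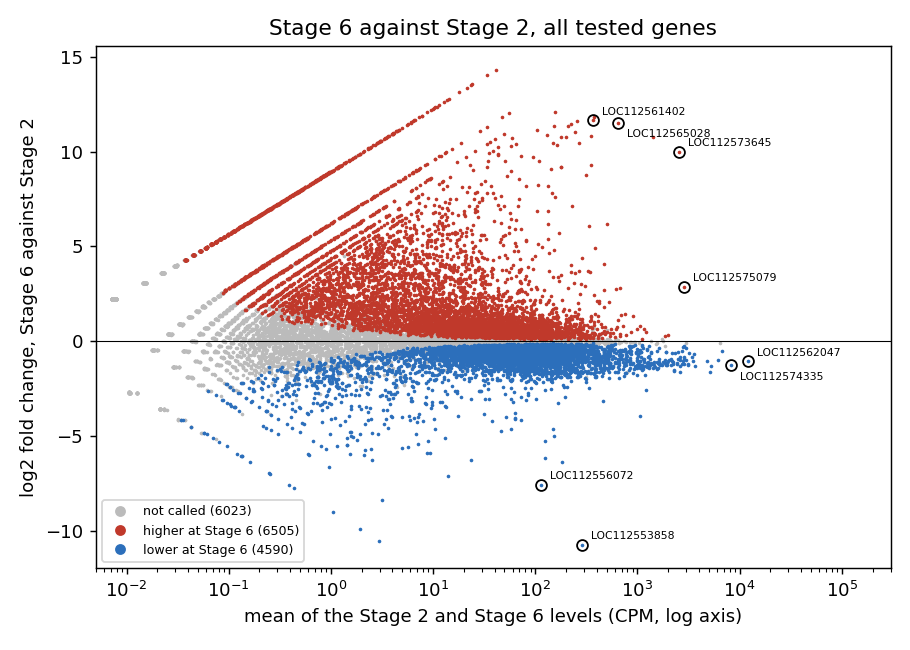
Each point is a tested gene, with the mean of its Stage 2 and Stage 6 levels in CPM (log axis) against its log2 fold change from Stage 2 to Stage 6, coloured by the call at an adjusted p of 0.05 and with the named genes circled. The 323 genes with 0 reads at both stages are not drawn, and the straight lines of points at the left are genes with 0 or few reads at one stage, whose fitted values are not bounds; rises reach further from 0 than falls.

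The sizes of the changes differed between the directions. Among genes called at 2-fold or more, the median log2 fold change was 3.03 for rises and -1.43 for falls. A number of rising genes (596) had 0 reads at Stage 2, and 21 falling genes had 0 reads at Stage 6. With these placed at the limit that 3 reads over the stage allow, the medians were 2.63 and -1.43. Counted at that limit, 1143 genes rose by 16-fold or more and 82 fell by as much, while 126 rose and 2 fell by 256-fold or more. Level set the starting points apart. Of the rising genes, 2649 (61.7%) averaged under 1 CPM at Stage 2, whereas 382 of the falling genes (23.4%) averaged under 1 CPM at Stage 6.

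Falling genes were the more abundant ones. The median falling gene of 2-fold or more averaged 65.2 CPM at Stage 2 and 23.8 CPM at Stage 6, and the median rising gene 0.370 and 5.05 CPM. Of the falling genes 651 averaged 100 CPM or more at Stage 2, and 283 of the rising genes did so at Stage 6. When tested genes were sorted by their mean over all 34 libraries, rises of 2-fold or more were most frequent from 1 to 10 CPM (40.4% of 4459 genes) and less so at 100 CPM or more (15.1% of 2244 genes). Falls of that size made up 7.83% and 14.4% of the same classes.

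The share of a library's reads moved with these levels. The 1632 falling genes held 35.9%, 35.0% and 34.3% of the reads in the Stage 2 libraries and 18.1%, 17.4% and 17.9% at Stage 6. The 4292 rising genes held 2.08%, 2.25% and 2.52% at Stage 2 and 13.8%, 14.5% and 13.9% at Stage 6. Both directions follow from how the genes were chosen, so no test is given for them. The levels of Stage 3 to Stage 5 were not contrasted in the choice, though these libraries shared in the filter, the scaling and the estimate of spread. These libraries lay between the ends: the falling genes took 27.4% ± 0.507 at Stage 3, 23.8% ± 1.45 at Stage 4 and 19.7% ± 0.278 at Stage 5 (SD, n = 3 each). After Stage 6 the rising genes went on to 25.7% ± 0.652 of reads at Stage 8 and 28.9% ± 2.42 in the hatchling (n = 4 each), and the falling genes to 12.8% ± 0.347 and 10.9% ± 0.486.

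**Figure D2:**
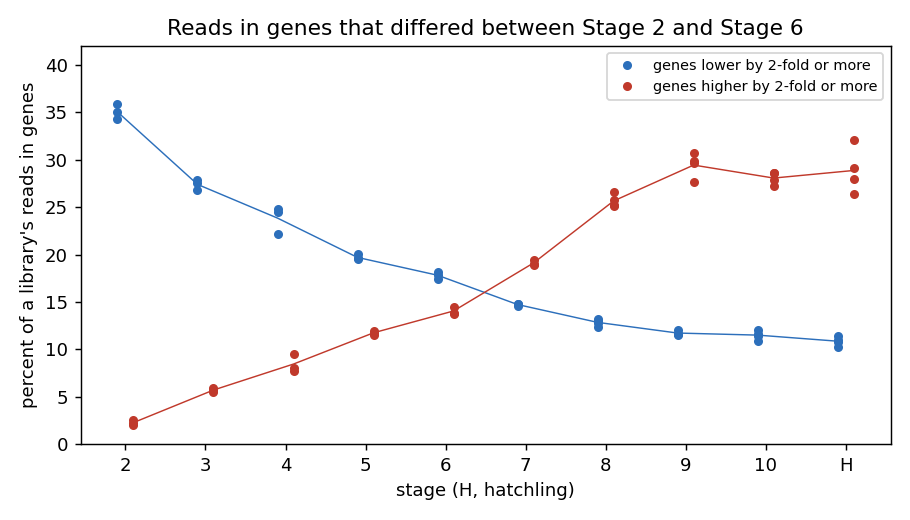
Percent of each library's reads in genes (vertical axis) that fell in genes lower (blue) or higher (red) by 2-fold or more at Stage 6 against Stage 2, by stage, with 1 point per library and lines through stage means. Falling genes took about 35.0% of the reads at Stage 2 and 17.8% at Stage 6, and the lines cross between Stage 6 and Stage 7.

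More genes were detected at Stage 6. With all 6 libraries thinned at random to 16690906 reads, 12048, 12058 and 12126 genes had 10 reads or more at Stage 2 and 13865, 13932 and 13898 at Stage 6. Every Stage 6 library was above every Stage 2 library, by 1821 genes on average. The reads were also spread over more genes. At Stage 2 the 10 leading genes accounted for 6.53% ± 0.177 of a library, and at Stage 6 for 4.79% ± 0.115. The 100 leading genes accounted for 25.1% ± 0.371 and 18.4% ± 0.241 (SD, n = 3 each), again with no overlap. The exact permutation test (two-sided) gave p = 0.1 for each of these 3 differences, the smallest it allows for 3 against 3 libraries, so none could pass 0.05.

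Among rising genes with at least 10 reads at Stage 2, the largest fold was that of LOC112561402. It stood at 0.0754, 0.0637 and 0.516 CPM in the Stage 2 libraries and at 724, 808 and 667 CPM at Stage 6. The groups are far apart, and 1 of the Stage 2 libraries is above the other 2. Its log2 fold change was 11.65 (SE 0.445, edgeR adjusted p = 1.12e-18), and 13.31 without Stage 2 replicate 3, since only 10 reads were counted at Stage 2. It was still at 0.249 ± 0.154 CPM at Stage 3 and reached 109 ± 40.5 CPM at Stage 4 and 427 ± 70.5 CPM at Stage 5 (n = 3 each).

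LOC112565028 followed the same course. Its Stage 2 libraries stood at 0.679, 0.510 and 0.129 CPM and its Stage 6 libraries at 1288, 1370 and 1198 CPM, with no overlap. The log2 fold change was 11.54 (SE 0.469, edgeR adjusted p = 3.97e-18). Stage 3 averaged 0.780 ± 0.241 CPM and Stage 4 282 ± 148 CPM (n = 3 each), so this gene too was low through Stage 3 and high from Stage 4.

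The largest gain in level was that of LOC112573645, and it came earlier. Its Stage 2 libraries stood at 4.00, 3.38 and 7.55 CPM and its Stage 6 libraries at 5601, 5863 and 3978 CPM. They do not overlap, and the log2 difference was 10.01 with an SE of 0.415 (edgeR adjusted p = 6.18e-18). At Stage 3 it already averaged 3339 ± 533 CPM (n = 3), a fraction of 0.938 of its log2 change. The means were 5424 ± 226 CPM at Stage 4 and 5224 ± 307 CPM at Stage 5 (n = 3 each). After Stage 6 they ran from 4111 ± 1748 CPM at Stage 9 to 7688 ± 1119 CPM in the hatchling (n = 4 each). From Stage 3 to Stage 5 its log2 fold change was 0.65 (edgeR adjusted p = 0.0556), and from Stage 7 to Stage 10 it was -0.07 (edgeR adjusted p = 0.82). It ranked 9812th of the tested genes by level at Stage 2 and 4th at Stage 6.

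LOC112575079 had the second largest gain and was already abundant at the start. Its Stage 2 libraries held 545, 602 and 905 CPM, and those of Stage 6 held 4916, 5083 and 4998 CPM. The Stage 2 libraries differed more among themselves than those of Stage 6, and the groups were far apart. The log2 fold change was 2.87 with an SE of 0.207 (edgeR adjusted p = 7.93e-13). By level it went from 266th to 5th among tested genes.

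LOC112561353 was singled out after its values were seen, as the most abundant Stage 6 gene among those that first passed the midpoint of their log2 change at Stage 5. Its Stage 2 libraries stood at 1.74, 1.47 and 1.74 CPM, and its Stage 6 libraries at 2812, 3054 and 2684 CPM. The means were 1.77 ± 0.601 CPM at Stage 3, 61.4 ± 24.1 CPM at Stage 4 and 940 ± 68.8 CPM at Stage 5 (n = 3 each). Its rise was therefore still under way at Stage 6, where the log2 fold change from Stage 2 was 10.76 with an SE of 0.344 (edgeR adjusted p = 2.37e-20).

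Of the falling genes with at least 10 reads at Stage 6, LOC112553858 changed by the largest factor. It stood at 736, 544 and 426 CPM in the Stage 2 libraries and at 0.262, 0.497 and 0.234 CPM at Stage 6, where 22 reads were counted in all. No libraries overlap, and the log2 fold change was -10.73 (SE 0.447, edgeR adjusted p = 7.03e-18). Each later stage was below the one before, at 40.4 ± 12.3 CPM, 3.95 ± 1.65 CPM and 0.626 ± 0.132 CPM at Stage 3, Stage 4 and Stage 5 (n = 3 each).

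LOC112556072 fell more slowly. Its Stage 2 libraries stood at 196, 293 and 193 CPM and its Stage 6 libraries at 1.57, 0.722 and 1.26 CPM. The log2 fold change was -7.57 with an SE of 0.372 (edgeR adjusted p = 2.18e-16). The stage means between were 90.9 ± 7.55, 28.0 ± 4.73 and 4.79 ± 1.86 CPM (n = 3 each). The groups at the ends are separate, and the path between them descends at every stage.

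The largest losses in level were those of the leading genes at Stage 2, and they were modest in fold. LOC112562047, first at both stages, held 16147, 16470 and 16033 CPM in the Stage 2 libraries, and 7993, 7594 and 7865 CPM in those of Stage 6. Its log2 fold change was -1.05 with an SE of 0.0625 (edgeR adjusted p = 1.26e-14). Against a 2-fold minimum its call was lost (edgeR adjusted p = 0.235). LOC112574335, second at Stage 2 and 6th at Stage 6, held 12527, 11172 and 11197 CPM and then 4740, 4816 and 4837 CPM. Here the log2 fold change was -1.28 with an SE of 0.0766 (edgeR adjusted p = 1.57e-14). With library totals in place of TMM factors these changes were -0.71 and -0.94, since the TMM factors of the Stage 2 libraries (0.775 to 0.814) were below those of Stage 6 (0.993 to 1.02).

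**Figure D3:**
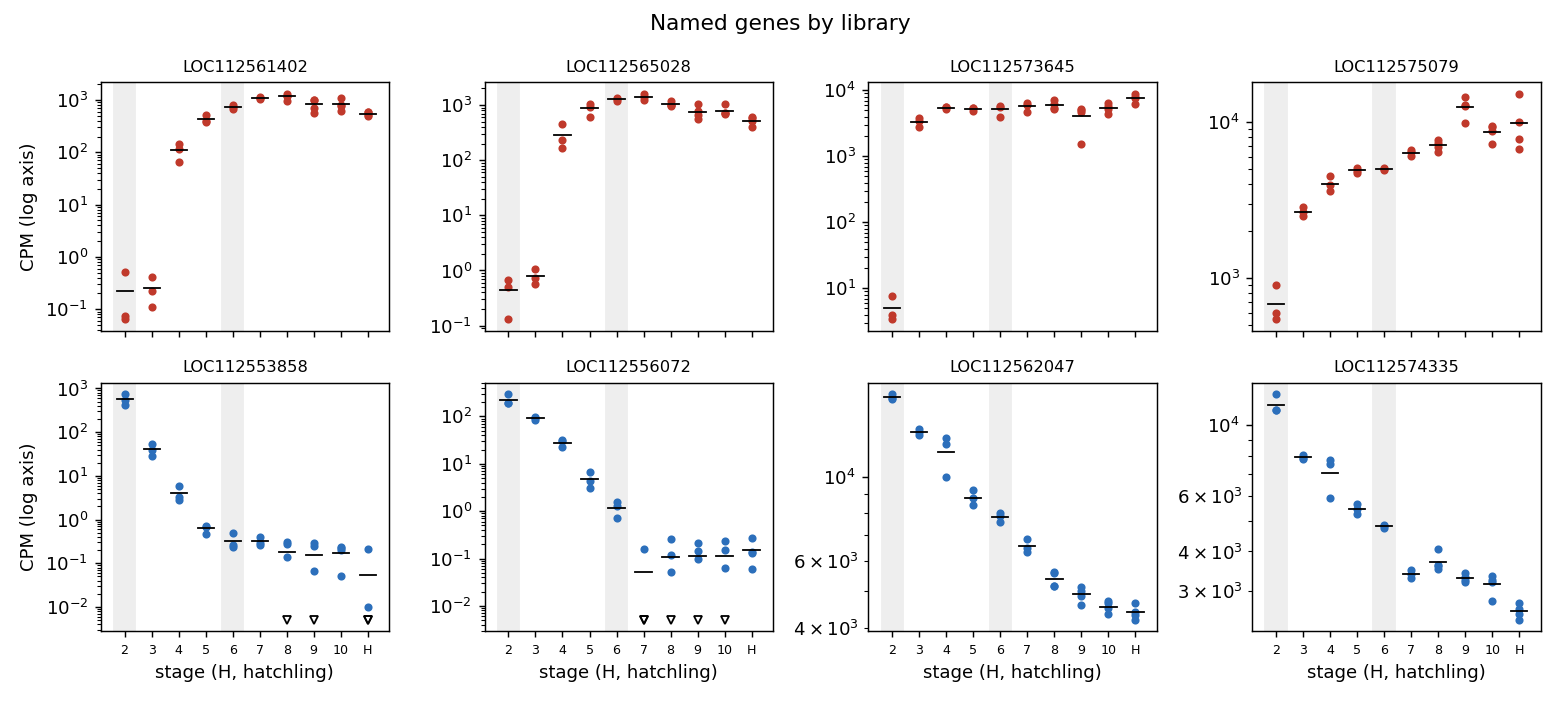
Level of the 8 genes named by rule in every library of the series, in CPM on log axes, by stage, with points for libraries, bars for stage means, open triangles for libraries with 0 reads and grey bands at Stage 2 and Stage 6. LOC112561402 and LOC112565028 reach at most 1.04 CPM in any library of Stage 2 or Stage 3, LOC112573645 averages 3339 CPM by Stage 3, and the falling genes descend through Stage 3 to Stage 6.

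Measured on a log2 scale, most of the change was complete before Stage 6. On the line in log2(CPM + 1) that joins the Stage 2 mean (0%) to the Stage 6 mean (100%), the Stage 3 libraries lay at 34.3%, 37.6% and 35.4%. Stage 4 libraries lay at 57.8%, 61.6% and 69.4%, and Stage 5 libraries at 87.7%, 86.6% and 87.6%. Beyond the filter and scaling shared by all libraries, these 9 libraries had no part in drawing the line, and no stage overlaps another on it. Later libraries lay beyond Stage 6, at 116% to 117% at Stage 7 and at 125% to 127% at Stage 8, after which Stage 9, Stage 10 and the hatchling overlapped between 127% and 132%.

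Whether rises or falls came earlier depended on the scale on which they were read. On the log2 scale, the first stage at which a gene had passed the midpoint of its change was Stage 3 for 1890 (44.0%) of the 4292 rising genes and for 417 (25.6%) of the 1632 falling ones. Stage 4 was the first for 847 falling genes (51.9%) and 1365 rising ones (31.8%). Only 124 rising (2.89%) and 27 falling genes (1.65%) passed it as late as Stage 6. With the midpoint taken in CPM the order at Stage 3 turned round, with 984 rising (22.9%) and 850 falling genes (52.1%) past it. A gene that climbs from a very low level passes the log2 midpoint while its CPM is still a small part of the final value, as LOC112577370 did with 8.91 CPM at Stage 3 against 83.1 CPM at Stage 6. Without genes that had 0 reads at the lower stage the log2 shares at Stage 3 were 44.1% of 3696 rises and 25.5% of 1611 falls, and with 10 CPM or more at the lower stage they were 48.4% of 574 and 14.5% of 996. These settings were added after the values were seen. The levels rose at every step in 2028 rising genes (47.3%) and fell at every step in 1055 falling genes (64.6%). These are orders of fitted values with no test between stages. With library totals the log2 shares at Stage 3 were closer, 39.8% of 5332 rises and 32.3% of 862 falls, and the falls that first passed the midpoint at Stage 4, 5 and 6 numbered 422, 146 and 16.

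**Figure D4:**
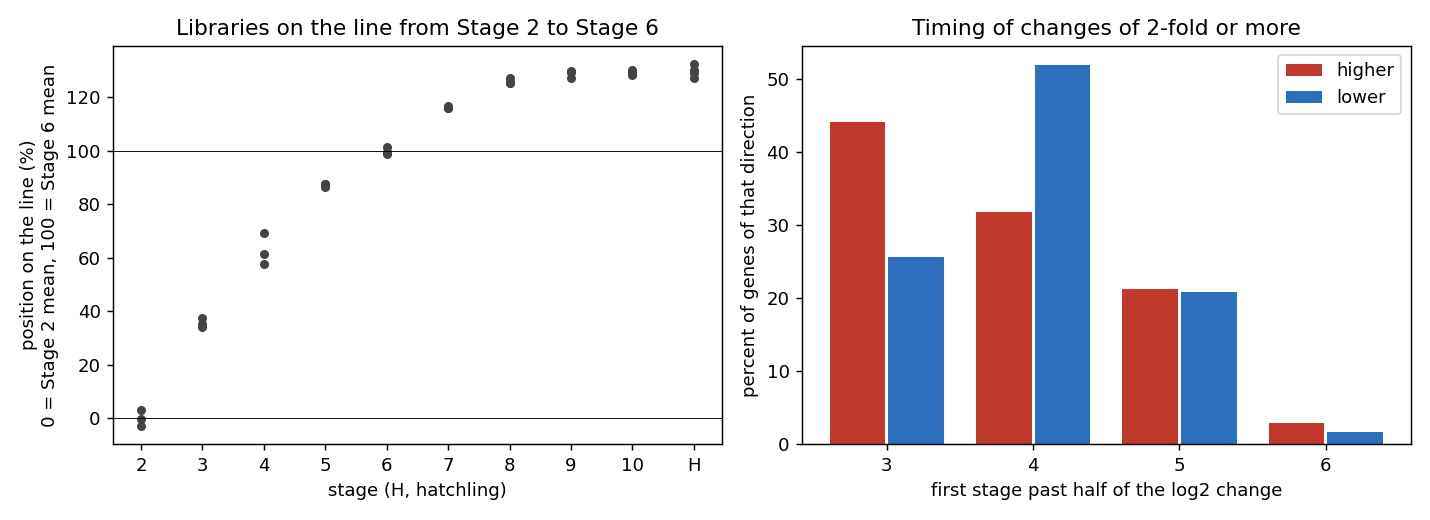
Left, position of each library (1 point each) on the line from the Stage 2 mean (0%) to the Stage 6 mean (100%) in log2(CPM + 1), by stage; right, percent of the genes changed by 2-fold or more, higher (red) and lower (blue), that first passed the midpoint of their log2 change at Stage 3, 4, 5 or 6. Stage 5 libraries lie at 86.6% to 87.7%, and Stage 3 takes 44.0% of rises against 25.6% of falls on this log2 scale, an order that turns round in CPM (22.9% against 52.1%).

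Single genes show the range of timing. These examples were chosen after the values were seen, as the most abundant gene of a timing class. LOC112562796, an early loss, went from 4382 ± 268 CPM at Stage 2 to 2744 ± 327 CPM at Stage 3 and 1846 ± 84.0 CPM at Stage 6 (n = 3 each). LOC112553993, a late loss, was at 57.6 ± 10.1 CPM at Stage 2, 57.6 ± 2.84 CPM at Stage 3, 39.2 ± 1.45 CPM at Stage 5 and 23.2 ± 2.26 CPM at Stage 6. LOC112565653, a late gain, stood at 61.3 ± 6.13 CPM at Stage 2, 44.1 ± 10.2 CPM at Stage 4, 82.3 ± 9.46 CPM at Stage 5 and 123 ± 14.1 CPM at Stage 6.

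A comparison of Stage 5 with Stage 3 covers the middle of the same span and shares no library with Stage 2 or Stage 6. It called 7759 genes (44.5%), 4168 higher (23.9%) and 3591 lower (20.6%) at Stage 5 (edgeR, adjusted p under 0.05). Of the 4292 genes that rose by 2-fold or more to Stage 6, 2745 were higher at Stage 5 than at Stage 3 (64.0%) and 55 lower (1.28%), with a median log2 fold change of 1.19 there against 0.03 for all tested genes. They made up 65.9% of all genes called higher at Stage 5. Of the 1632 genes that fell by 2-fold or more, 1197 were lower at Stage 5 than at Stage 3 (73.3%) and 6 higher (0.368%), and they made up 33.3% of all genes called lower there.

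The later direction of these genes was read from Stage 10 against Stage 7, which also shares no library with either stage and called 10686 genes (61.3%), 5653 higher (32.4%) and 5033 lower (28.9%). Of the early rising genes, 2062 were higher at Stage 10 than at Stage 7 (48.0%) and 523 lower (12.2%). Among the early falling genes 729 were lower (44.7%) and 330 higher (20.2%). By stage means, 3735 of the rising genes (87.0%) had their highest level after Stage 6, most often in the hatchling (1716 genes), and 1303 of the falling genes (79.8%) had their highest at Stage 2. In 214 falling genes (13.1%) the highest mean was that of the hatchling. By the way they were chosen, rising genes cannot be highest at Stage 2, nor falling genes at Stage 6. These shares therefore follow in part from the choice, and they were not counted over all tested genes.

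A comparison of the ends leaves out genes that moved between them and came back. Among the 6346 genes with no call between Stage 2 and Stage 6, 568 (8.95%) had a fitted level at Stage 3, 4 or 5 that was 2-fold or more above both ends, and 761 one that was 2-fold or more below both, where 3.70% of all tested genes were above both ends and 5.74% below. No test was made of these, and genes whose replicates differ widely are among them. No minimum level was set, so genes with few reads enter too. Of the genes with no call, 323 had 0 reads at both ends. One gene with 0 CPM at both, LOC112553403, had a fitted Stage 4 level 3.36 log2 units above Stage 2. Called genes have ends that lie apart, which lowers the shares over all tested genes. LOC112561451, chosen after its values were seen as the gene of highest Stage 2 mean among the 761, held 23.0, 1249 and 207 CPM in the Stage 2 libraries and 328, 35.9 and 33.4 CPM in those of Stage 6, with overlapping ends. LOC112575901, chosen after its values were seen as the most abundant of the 568, held 285, 191 and 360 CPM in the Stage 2 libraries, 810, 694 and 452 CPM in those of Stage 3 and 291, 337 and 275 CPM in those of Stage 6. Its Stage 3 libraries were above all libraries of both ends, and the ends overlapped (log2 fold change 0.11, edgeR adjusted p = 0.768).

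Some genes were read at Stage 6 and not at all at Stage 2. In 23 genes every Stage 6 library had 10 CPM or more while none of the 55988658 reads of Stage 2 fell in the gene. A count of 0 allows 3 reads in that total, a level of up to 0.0675 CPM. Their median level at Stage 6 was 21.0 CPM. None of them averaged 10 CPM at Stage 3; 2 first did at Stage 4, 13 at Stage 5 and 8 at Stage 6. A reverse pattern, 10 CPM or more throughout Stage 2 and none of the 65978482 reads of Stage 6, was found in 0 genes. With a limit of 1 CPM in every library the counts were 139 and 1.

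LOC112577370 had the highest Stage 6 level of the 23. It stood at 116, 70.2 and 63.4 CPM in the Stage 6 libraries, and their mean of 83.1 CPM was 1232-fold the Stage 2 limit. Reads first appeared at Stage 3, at 13.1, 6.72 and 6.89 CPM, and the level was 86.5 ± 16.5 CPM by Stage 5. LOC112577374 came next, at 47.7, 85.6 and 71.0 CPM at Stage 6, with a mean of 68.1 CPM that was 1009-fold the limit. Both had no read in any of the 3 Stage 2 libraries.

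Rising genes often lay beside each other. Genes were put in the order of the reference assembly ASM307304v1, which may not be the build behind the counts, so order alone is used. Among 15692 pairs of neighbouring tested genes, the gene after one that rose by 2-fold or more had also done so in 38.4% of cases, against 24.4% for the gene after any tested gene. For falls of that size the shares were 14.2% and 9.57%. Of 4290 rising genes that could be placed, 2403 (56.0%) had a neighbour in the same set, and 262 lay in 42 unbroken runs of 5 genes or more. The longest run of falling genes had 4 members. Falling genes are the smaller set, and a larger set has more neighbours and longer runs by its size alone, so runs of the 2 directions cannot be compared directly. The share of genes with a rising neighbour on either side was not counted over all tested genes. No test was made of these shares. Neighbours that are near-identical copies can share reads, and copies were not identified here.

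The longest run held 14 genes, from LOC112562077 to LOC112562089, and LOC112561402, described above, lies inside it. The run was singled out for its rises, so these are a description. Its 14 genes summed to 1.36, 0.701 and 2.13 CPM in the Stage 2 libraries and to 2890, 3670 and 3092 CPM at Stage 6. Only 62 reads were counted in them over all Stage 2 libraries, and 4 of the genes had none. The sum was 1.32 ± 0.353 CPM at Stage 3 and 278 ± 88.2 CPM at Stage 4 (n = 3 each), so the block as a whole was low until Stage 3 and rose between Stage 3 and Stage 4.

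Members of the block differed in level. At Stage 6 they ran from 1.73 CPM for LOC112562077, at one edge, to 733 CPM for LOC112561402. LOC112561406 stood at 541 CPM, LOC112561401 at 486 CPM, LOC112561403 at 450 CPM and LOC112563159 at 420 CPM. CPM is not corrected for gene length, so the order of genes by level is one of reads, not of molecules. In the comparison of Stage 5 with Stage 3 all 14 were called higher (edgeR, adjusted p under 0.05). So were 23.9% of tested genes, and 64.0% of the genes that rose by 2-fold or more to Stage 6, from which the run was drawn.

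After Stage 6 the sum of the block went on to 6306 ± 573 CPM at Stage 8 and was 2618 ± 379 CPM in the hatchling (n = 4 each). From Stage 7 to Stage 10, 3 of its 14 genes were called higher and 1, LOC112562077, lower, where 32.4% and 28.9% of all tested genes were. A run ends at a gene outside the set of 2-fold rises, so the genes on either side lie outside that set by definition. LOC112562078, before the block, averaged 1.62 CPM at Stage 2 and 3.04 CPM at Stage 6. It was not called (log2 fold change 0.92, edgeR adjusted p = 0.429). LOC112562093, after the block, fell from 67.3 to 25.3 CPM (log2 fold change -1.41, edgeR adjusted p = 3.4e-11).

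**Figure D5:**
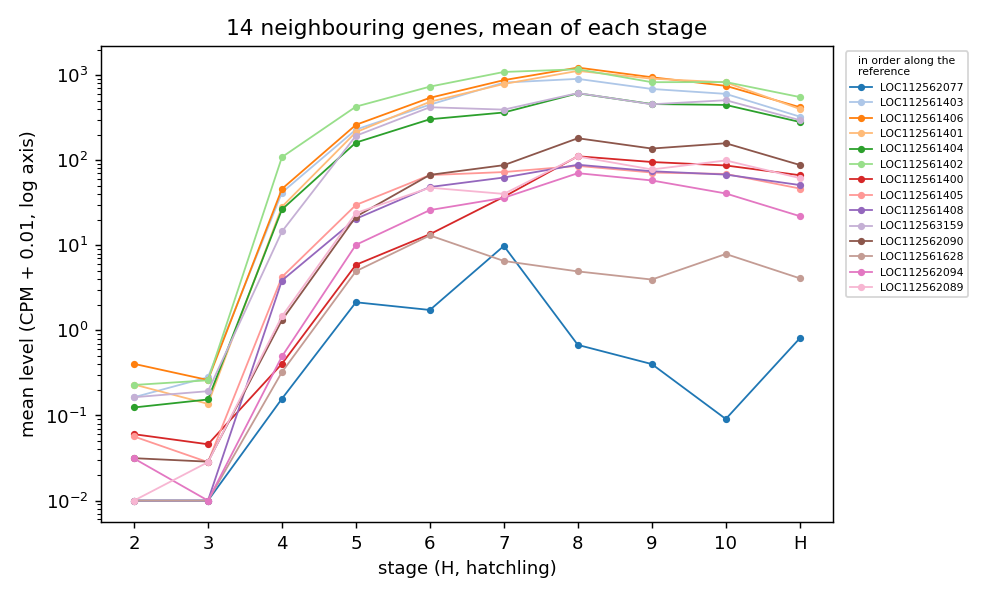
Mean level of each of the 14 neighbouring genes at each stage, in CPM with 0.01 added, on a log axis, with genes listed in their order along the reference. All average under 0.4 CPM at Stage 2 and Stage 3, and between Stage 3 and Stage 5 each of them rises.

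The second run held 11 genes, from LOC112577368 to LOC112577024, and includes LOC112577370. Its genes summed to 0, 0.191 and 0.129 CPM at Stage 2, a total of 5 reads, and to 462, 410 and 362 CPM at Stage 6. No read was found at Stage 2 in 8 of the 11 genes. Their levels at Stage 6 ran from 14.7 ± 1.62 CPM for LOC112577018 to 120 ± 12.2 CPM for LOC112577373 (n = 3 each). At Stage 3 its sum was 10.9 ± 3.68 CPM (n = 3), above all 3 of its Stage 2 libraries, and it rose to 1433 ± 217 CPM at Stage 8 (n = 4). Of the 23 genes read at Stage 6 and not at Stage 2, 8 lie in this run and 3 in the first. Among the same 23, 20 lie beside another rising gene, where 56.0% of all placed rising genes do. The 23 were chosen for a rise between the same stages as the runs, so this is a description.

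Neighbours of the other named genes varied. LOC112565150, next to LOC112565028, averaged 0.196 ± 0.122 CPM at Stage 2, with 9 reads, and 758 ± 71.4 CPM at Stage 6 (n = 3 each); its log2 fold change was 11.84 (edgeR adjusted p = 1.47e-17). LOC112573646, next to LOC112573645, rose from 0.0930 ± 0.0501 to 87.2 ± 48.4 CPM (log2 change 9.86, edgeR adjusted p = 1.05e-10), while the gene on the other side, LOC112574238, stood at 12.7 ± 1.43 and 11.7 ± 1.48 CPM (edgeR adjusted p = 0.368). LOC112554457, which adjoins LOC112553858, averaged 4.13 ± 1.71 CPM at Stage 2 and 0.195 ± 0.0676 CPM at Stage 6 (log2 change -4.37, edgeR adjusted p = 9.55e-06). Neither neighbour of LOC112562047 was called (edgeR adjusted p = 0.687 and 0.165).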

How the data were processed

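The authors deposited a table of whole-number read counts for 21131 genes and 34 libraries, without normalization. Per the submitters' processing notes STAR was used. The build, annotation, strand setting, treatment of multiply mapped reads and STAR version were not given in the sources used here. Selection of polyadenylated RNA means that RNA with short tails can be missed. All 21131 identifiers matched the reference table.

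Stages were compared with edgeR 4.0.16 (R 4.3.3), by its quasi-likelihood test, with filterByExpr (minimum count 10; 17441 genes kept), TMM factors and 1 coefficient per stage fitted to the 34 libraries together (24 residual degrees of freedom). P-values were adjusted by Benjamini-Hochberg over tested genes. CPM values use TMM-scaled totals. DESeq2 1.42.0 and limma 3.58.1 (voom) were alternatives. Detection was compared with exact permutation tests (SciPy 1.17.1) on thinned counts. The main fit was also run on simulated data in which a small part of the genes changed, equally many up and down. That setting cannot check the scaling on which the balance of directions depends.

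No product names or sequences were in the reference, so gene lists by product or protein signature could not be applied. Named genes are the 2 rising and 2 falling calls of largest fold (10 CPM or more at the higher stage, 10 reads or more at the lower, no overlap) and the 2 each of largest difference in CPM. Members and rules were chosen with earlier results of these data known. Counts of 2 libraries of 1 stage differed by a chi-square per gene of 10.0 to 22.6, so none was treated as a copy. Counting limits cover counting error only.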

Additional observations from a re-analysis of the deposited data

How the results depend on the processing

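Every alternative kept the direction of the 8 named genes, and the call was lost once, for LOC112562047 against a 2-fold minimum. Against that minimum 4354 genes were called, 3375 higher and 979 lower, so 77.5% rose. With library totals 2815 genes were lower, 862 of them by 2-fold or more, and 75.3% of calls rose. The share of rises was 53.7% with DESeq2, 53.9% with RLE factors, 53.5% with Stage 2 and Stage 6 libraries only and 57.2% with limma-voom, and it ran from 59.0% to 60.3% when 1 replicate was left out. Genes read only at Stage 6 numbered 23, or 76 with up to 3 reads allowed at Stage 2 and 139 with 1 CPM in every library; those read only at Stage 2 numbered 0, or 1 with 1 CPM. Same-numbered replicates of Stage 2 and Stage 6 deviated from their stage means with correlations of 0.064, 0.084 and -0.015. For differently numbered replicates the correlations ran from -0.099 to 0.038. Replicates were not treated as pairs, because the labels do not say that the number marks a clutch or batch. With the replicate block 11028 genes were called in place of 11095. Without 1 replicate the calls ran from 10515 to 10666. With the filter, scaling and spread all taken from the Stage 2 and Stage 6 libraries only, 9805 genes were called. Of these, 3391 rose and 1618 fell by 2-fold or more, against 4292 and 1632 in the main fit. Alternatives for Stage 10 against Stage 7, timing and neighbours were chosen after seeing the data. The shares of neighbouring rises ran from 37.2% to 41.7% and of neighbouring falls from 10.8% to 16.1%. The 41.7% and 10.8% came with library totals, under which 5332 genes rose and 862 fell by 2-fold or more. The share for the gene after any tested gene changes with the size of the set. It is not given for these settings, so the ranges do not show stronger or weaker grouping. Depth limits genes with few reads, and lists by product were not run.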
